A study of Homo sapiens with 44 samples.

Results

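The 36 genes described here belong to the unfolded protein response and to the genes that the transcription factor ATF4 controls. They were picked by name from the 58721 genes of each count table, with earlier results of these data known, and all 36 were found and passed the filter on low counts in all 3 tables. 15 of them code for chaperones, folding enzymes and degradation factors of the endoplasmic reticulum (ER). 4 code for the sensors of the response or their direct effector, and 17 form the ATF4 arm. The chaperone genes and the ATF4 arm are treated apart.

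The ER folds proteins that are secreted or sit in membranes. When unfolded proteins build up there, the kinase IRE1 (gene ERN1) splices XBP1 mRNA, ATF6 is cut into a transcription factor, and both routes switch on chaperone genes and genes of ER-associated degradation (ERAD), which sends misfolded proteins to the proteasome. The kinase PERK (gene EIF2AK3) slows translation and favours the synthesis of ATF4 protein, which other kinases do in amino acid shortage, and ATF4 switches on genes for amino acid synthesis, tRNA charging and cell fate. Gene counts show neither splicing of XBP1, nor cutting of ATF6, nor translation of ATF4, so all values below are mRNA levels.

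RNA was sequenced from A549, a human lung adenocarcinoma cell line, in its unedited form (WT), and from lines of it labelled het1, het2 and homo, in which the TAZ2 domain of the acetyltransferase p300 was truncated. The lines were sequenced as cultured cells (3 libraries each of het1, het2, homo and WT) and as xenograft tumours taken at day 30 (4 each). A further set held het1 and WT tumours that were given the histone deacetylase inhibitor SAHA (vorinostat) or its vehicle DMSO for 4 weeks (4 libraries in each of these 4 groups), which makes 44 libraries in 12 groups. All groups share the A549 background, and the labels name neither the host animal nor its immune state. Each mutant label stands for a single line, so what belongs to the truncation and what belongs to the line cannot be told apart. Nothing in the labels ties the replicate libraries to distinct cultures or distinct animals, and a p-value here therefore covers the spread between the libraries at hand, which may be technical.

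The deposited counts summed to 61168373 to 93444327 per cell library, 63243289 to 99593214 per day 30 tumour library and 61937591 to 82475298 per library of the treatment set. Levels are CPM, counts scaled to 1000000 per library after TMM normalisation, and a change is called where edgeR's quasi-likelihood test gave a Benjamini-Hochberg adjusted p under 0.05 over all genes of the table. EP300, the edited gene, averaged 185 ± 2.87 CPM in het1 cells, 153 ± 4.05 in het2, 190.5 ± 2.38 in homo and 115 ± 3.84 CPM in WT cells (SD, n = 3 each). Its log2 fold changes against WT cells were 0.69, 0.42 and 0.73, all called. In day 30 tumours they were 0.21 in het1, which was not called, and 0.24 in het2 and 0.66 in homo, which were. The edited sequence was not read here, and a gene's mRNA level does not show a truncation, so these counts do not check the genotype labels. Of the 7 lung epithelial markers, NKX2-1 and SFTPB, which mark the lung lineage, were at or below 0.667 CPM on average in all 12 groups, and the rest are the keratins KRT7, KRT8 and KRT18 and the epithelial genes CDH1 and EPCAM. The list summed to 2576 to 2696 CPM in het1, 2018 to 2086 in het2 and 833 to 849 in homo cells, against 6406 to 6751 CPM in WT cells, and to 3450.4 to 4029 CPM in het1, 4651 to 5268 in het2 and 4641 to 5180.3 in homo tumours, against 6562 to 6857 CPM in WT day 30 tumours. In each line 5 of the 6 tested were lowered and 1 raised in cells, and all 5 tested were lowered in day 30 tumours. The summed fibroblast markers ranged from 117 to 299.7 CPM in het1, 109 to 356 in het2, 326 to 501 in homo and 224 to 369.8 CPM in WT day 30 tumours, and 51.3 to 52.7 CPM in het1, 55.7 to 58.8 in het2 and 66.4 to 74.2 in homo cells, against 9.86 to 10.9 CPM in WT cells. Of the 10 fibroblast markers, 6 were raised in het1 tumours, 3 raised and 1 lowered in het2 tumours, and 6 raised and 1 lowered in homo tumours. Myeloid markers summed to 13.4 to 16.6 CPM in het1, 25.3 to 31.6 in het2, 17.4 to 20.7 in homo and 32.8 to 46.1 CPM in WT tumours, with LYZ giving the largest share in WT tumours (mean 31.5 CPM) and TYROBP, CD68 and PTPRC below 1 CPM on average in the day 30 tumours. Of the 6 myeloid markers tested, 1 was raised and 3 lowered in het1, 1 raised and 2 lowered in het2, and 3 raised and 1 lowered in homo tumours. Endothelial markers summed to 2.25 to 3.09 CPM in het1, 7.15 to 9.73 in het2, 6.14 to 6.99 in homo and 3.20 to 3.96 CPM in WT tumours. Fewer cells of a type and less RNA per cell cannot be told apart in these bulk samples.

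The promoters of the chaperone genes carry recognisable elements, which are shown here because the lists differ in the elements found. RefSeq promoter windows (build GRCh38.p14, 300 bases from 250 before to 50 after the start) were matched by symbol for 34 of the 36 genes: all 15 chaperone genes, all 4 sensor genes and 15 of 17 in the ATF4 arm. The ER stress element (ERSE), spelled CCAAT, then 9 bases of any kind, then CCACG, and searched on both strands, which ATF6 with NF-Y and XBP1 are known to bind, was found in 6 of 15 chaperone windows (HSPA5, HSP90B1, PDIA6, CALR, CANX and CRELD2), in that of XBP1, and in none of the 15 matched ATF4 arm windows, against 0.0769% of all 35116 windows. Its variant ERSE-II, spelled ATTGG, then 1 base of any kind, then CCACG, was found in SDF2L1, HYOU1 and HERPUD1, against 0.0541% of windows. The core of the CARE element that ATF4 binds, spelled TGATGNAA, was found in CHAC1, ASNS and AARS of the ATF4 arm and in HERPUD1, against 3.62% of windows. A match is a run of letters in this window and was not tested as a binding site. A gene counted if any of its windows matched, as CANX did in several, while the shares are of single windows. The elements searched are those already named for ER stress and ATF4, so the comparison with all windows is no test of the lists.

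In the stretches below, read 5′ to 3′ on the coding strand, capitals mark the matched elements: the ERSE in HSPA5 (chr9:125241344-125241593, minus strand), the CARE core on the opposite strand and then the ERSE-II in HERPUD1 (chr16:56931892-56932047, plus strand).
HSPA5: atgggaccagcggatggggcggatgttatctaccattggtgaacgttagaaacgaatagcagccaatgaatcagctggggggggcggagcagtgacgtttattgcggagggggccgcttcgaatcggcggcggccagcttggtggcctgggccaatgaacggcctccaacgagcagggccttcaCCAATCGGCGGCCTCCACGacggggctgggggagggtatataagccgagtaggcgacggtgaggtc
HERPUD1: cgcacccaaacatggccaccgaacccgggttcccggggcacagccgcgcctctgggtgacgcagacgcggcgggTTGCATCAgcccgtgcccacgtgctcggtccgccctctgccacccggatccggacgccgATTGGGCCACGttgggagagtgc

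Single sites of further genes, each read in the direction of its element with 5 flanking bases on either side, are given for 4 genes that carry tumour results below and, for AARS, as an example of the CARE core. They lie at chr12:103930211-103930239 and chr12:103930316-103930344 (both HSP90B1, plus and minus strand), chr22:49918549-49918577 (CRELD2, minus), chr22:28800598-28800626 (XBP1, minus), chr22:21642109-21642129 (SDF2L1, minus) and chr16:70289681-70289698 (AARS, plus). The 9 bases between CCAAT and CCACG differ among the ERSE sites shown.
HSP90B1 ERSE, plus strand: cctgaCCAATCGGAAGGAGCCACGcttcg
HSP90B1 ERSE, minus strand: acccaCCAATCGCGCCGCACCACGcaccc
CRELD2 ERSE: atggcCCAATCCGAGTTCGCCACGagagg
XBP1 ERSE: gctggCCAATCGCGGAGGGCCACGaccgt
SDF2L1 ERSE-II: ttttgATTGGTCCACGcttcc
AARS CARE core: ttggcTGATGCAActgcg

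Per kilobase of exon, the 4 most abundant of the 36 mRNAs in unedited cells came from chaperone genes, while DNAJB9 of the same list ranked 29. HSP90B1, the ER form of HSP90, averaged 429 ± 16.9 CPM per kb in WT cells (SD, n = 3). The lectin chaperones CANX and CALR averaged 401 and 339 CPM per kb, and HSPA5 (BiP, the main ER HSP70 and a repressor of the sensors) 237. Within the ATF4 arm the serine synthesis enzyme PSAT1 led with 129.9 CPM per kb, followed by the alanyl-tRNA synthetase gene AARS with 108 and ATF4 itself with 101. CHAC1 and ASNS were the lowest members, at 1.31 and 0.346 CPM per kb. In WT day 30 tumours PSAT1 stood at 11.9 and XBP1 at 150.1 CPM per kb, against 129.9 and 42.9 in WT cells. The cell and tumour tables were scaled separately, so these last levels are set side by side without a test.

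**Figure D1:**
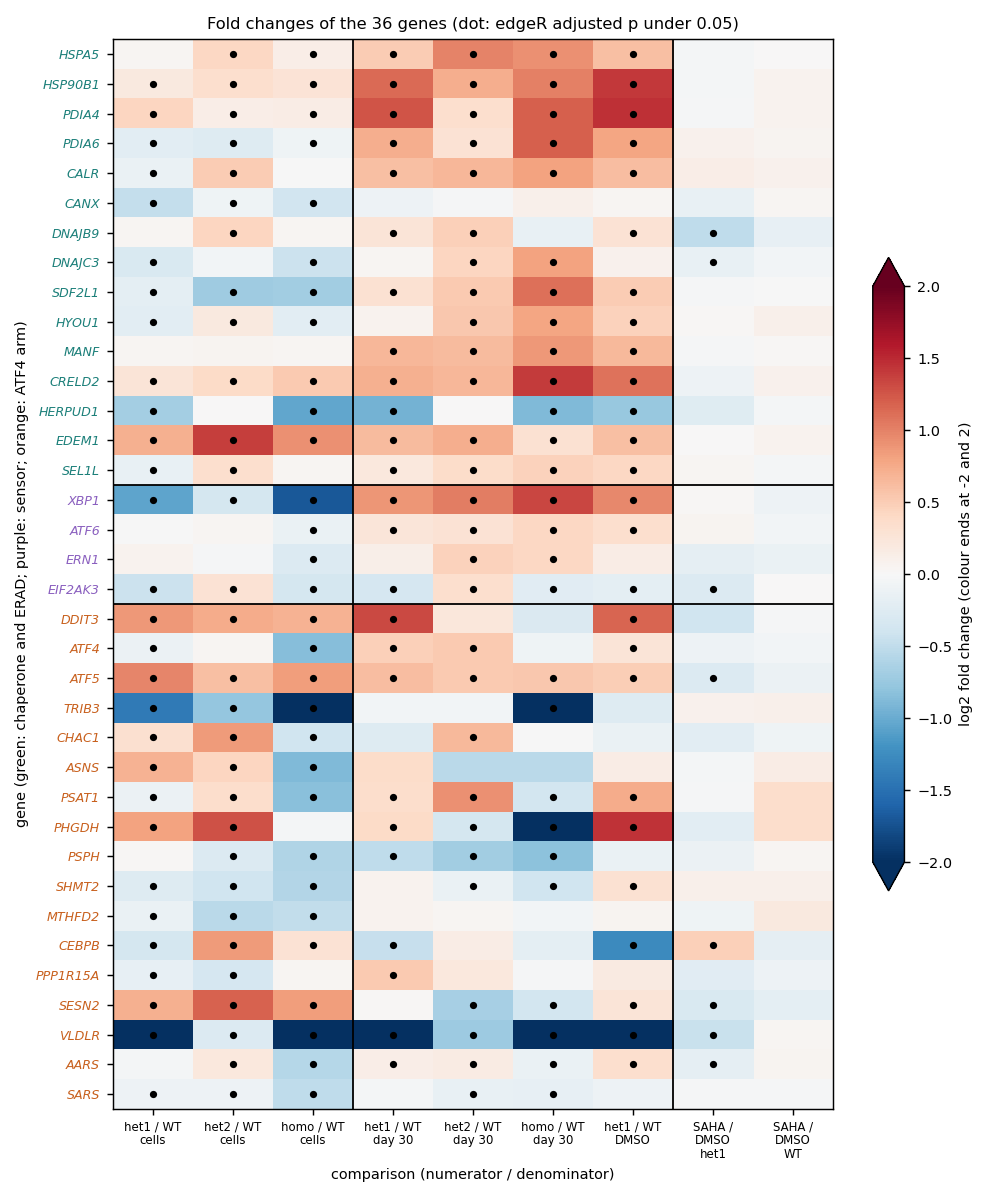
Colour gives the log2 fold change of each of the 36 genes (rows) in 9 comparisons (columns), numerator first, and a dot marks an edgeR adjusted p under 0.05. The chaperone rows are mostly red in the 4 columns of tumours against WT tumours, apart from HERPUD1, CANX and, in homo tumours, DNAJB9, while the ATF4 arm is mixed and the SAHA columns are pale.

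In culture the chaperone genes did not move in a shared direction. Of the 15 genes, 4 were raised and 8 lowered in het1 cells, 9 raised and 3 lowered in het2 cells, and 5 raised and 6 lowered in homo cells, each against the same 3 WT libraries. Calls were common in these tables: of all genes tested, 32.0% were raised and 30.8% lowered in het1 cells, 35.1% and 33.3% in het2 cells, and 35.4% and 35.1% in homo cells. The median log2 fold change of the chaperone genes was -0.13 in het1, 0.20 in het2 and 0.03 in homo cells, beside 0.03, 0.02 and 0.01 over all genes.

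EDEM1, an ERAD factor that takes misfolded glycoproteins out of the folding cycle, was the chaperone-list gene with the greatest called rise in all 3 lines in culture. It stood at 158, 159 and 152 CPM in het1 cells, 249, 246 and 250.4 in het2 cells and 177, 177 and 183 in homo cells, against 93.8, 96.6 and 94.9 CPM in WT cells. Every mutant library lay above every WT library, with het2 highest. The log2 fold changes were 0.72 (SE 0.027, adjusted p = 4.56e-21), 1.39 (SE 0.027, adjusted p = 3.8e-29) and 0.91 (SE 0.027, adjusted p = 3.8e-24). HSP90B1, PDIA4 (a protein disulfide isomerase) and CRELD2 (a secreted ER stress protein) also rose in all 3 lines, by 0.19 to 0.33, 0.13 to 0.43 and 0.26 to 0.52 on the log2 scale. PDIA6, CANX and SDF2L1 (a partner of ER HSP70 co-chaperones) were lowered in all 3, and the 4 raised and 3 lowered genes compare with 21.0% of all tested genes raised and 21.1% lowered in all 3 lines. 

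HERPUD1, an ERAD scaffold in the ER membrane, was lowered in het1 and homo cells. It stood at 35.8, 36.1 and 35.1 CPM in het1 cells, 58.6, 58.9 and 55.5 in het2 cells and 26.7, 28.9 and 28.3 in homo cells, against 56.9, 59.0 and 55.7 CPM in WT cells. The het2 libraries overlapped WT, while the het1 and homo libraries lay below it. The log2 fold change was -0.68 in het1 (SE 0.039, adjusted p = 3.08e-16) and -1.03 in homo cells (SE 0.040, adjusted p = 5.62e-21), and the het2 difference of 0.01 was not called (adjusted p = 0.792). HSPA5 was at 942, 964 and 939 CPM in het1 cells, 1237, 1241 and 1219 in het2 cells and 1019.5, 1007 and 1016 in homo cells, against 917, 937 and 927 CPM in WT cells. The het2 libraries were the highest, the homo libraries lay just above WT, and het1 did not pass the test (log2 fold changes 0.41, 0.13 and 0.03, adjusted p = 1.58e-17, 3.03e-06 and 0.199 in that order). SDF2L1 was at 13.5, 13.9 and 15.0 CPM in het1, 10.0, 9.81 and 10.1 in het2 and 9.29, 10.6 and 10.3 in homo cells, against 17.2, 17.9 and 13.8 CPM in WT cells; the het1 values overlapped WT, and that call was lost without WT replicate 1 or 2 or het1 replicate 1.

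Among the sensors, XBP1 mRNA was lowered in all 3 lines in culture. It stood at 41.7, 43.0 and 41.4 CPM in het1 cells, 67.7, 72.1 and 66.7 in het2 cells and 26.5, 26.6 and 28.3 in homo cells, against 87.0, 84.97 and 90.7 CPM in WT cells. The 4 groups did not overlap, and homo was the lowest. The log2 fold change was -1.06 in het1 (SE 0.038, adjusted p = 9.5e-22), -0.35 in het2 (SE 0.037, adjusted p = 5.72e-10) and -1.69 in homo cells (SE 0.040, adjusted p = 4.48e-27). EIF2AK3 was lowered in het1 and homo cells (log2 fold changes -0.42 and -0.35) and raised in het2 cells (0.29). ATF6 and ERN1 were lowered in homo cells (log2 fold changes -0.13 and -0.27) and were not called in het1 (-0.01 and 0.07) or het2 cells (0.03 and -0.03).

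**Figure D2:**
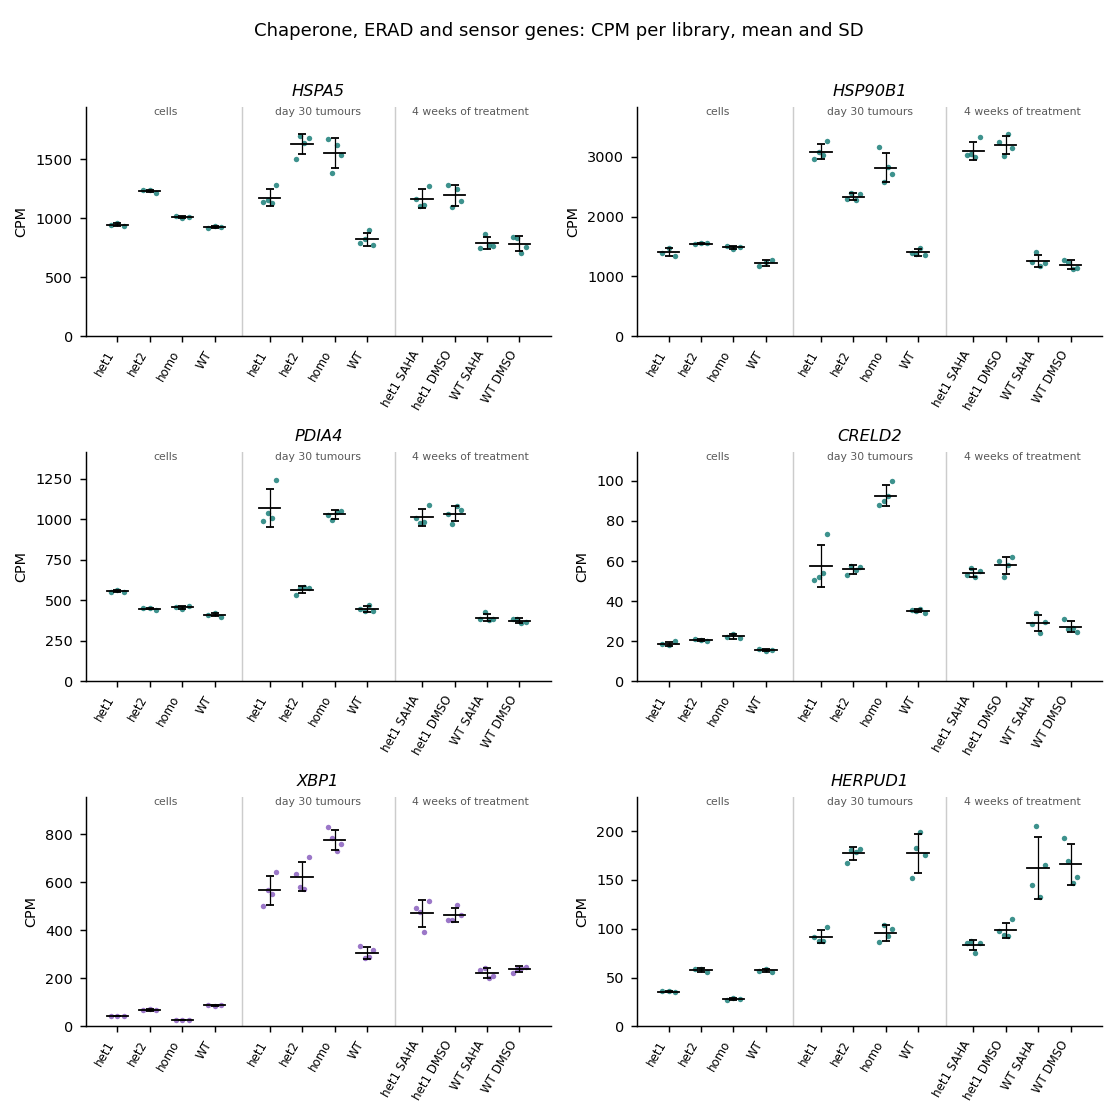
CPM of 6 genes in each of the 44 libraries (points), with the group mean (line) and SD (bar), in cells, day 30 tumours and tumours after 4 weeks of treatment. XBP1 averages 27.1 CPM in homo cells and 87.6 in WT cells, but 776 CPM in homo tumours and 306 in WT tumours.

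In day 30 tumours most chaperone genes were higher than in WT tumours in each line. Of the 15, 11 were raised and 1 lowered in het1 tumours, 13 raised in het2 tumours, and 12 raised and 1 lowered in homo tumours. Of all genes tested, 26.8% were raised and 24.8% lowered in het1 tumours, 24.4% and 24.8% in het2 tumours, and 27.1% and 27.7% in homo tumours. The chaperone genes' median log2 fold change was 0.51 in het1, 0.53 in het2 and 0.81 in homo tumours, beside 0.02, -0.01 and 0.01 over all genes. 10 of the 15 were raised in all 3 lines (HSPA5, HSP90B1, PDIA4, PDIA6, CALR, SDF2L1, MANF, CRELD2, EDEM1 and SEL1L), where 11.8% of all tested genes were. The 3 comparisons share the same 4 WT libraries, so the lines do not give independent counts. With the mean log2 level of the fibroblast, endothelial and myeloid markers as a covariate, 11 chaperone genes were raised in het1, 13 in het2 and 11 in homo tumours. Over all 22533 tested genes that fit raised 5675, 3865 and 3200 in the same order, against 6032, 5493 and 6098 without the covariate. In cultured cells 7, 7 and 6 of the 7 tested fibroblast markers were raised in het1, het2 and homo, so this covariate does not follow host cells alone. Most changes were below 1 on the log2 scale: past that size, 2 chaperone genes were raised in het1 and 5 in homo tumours, and in het2 HSPA5 came closest at 0.99. The share of all genes past that size is not given, so these counts are not to be read as few or many.

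HSPA5 was at 1140.2, 1154, 1129 and 1286 CPM in het1 tumours, 1508, 1699, 1637 and 1686 in het2 and 1674, 1382, 1622 and 1542 in homo tumours, against 793, 822, 902 and 779 CPM in WT tumours. Each mutant library was above each WT library, and het1 was the lowest mutant group. Its log2 fold change was 0.51 in het1 (SE 0.067, adjusted p = 1.56e-06), 0.99 in het2 (SE 0.067, adjusted p = 2.28e-10) and 0.92 in homo tumours (SE 0.067, adjusted p = 3.13e-10). HSP90B1 was at 2970.4, 3083, 3027 and 3262 CPM in het1 tumours, 2290.1, 2394, 2277 and 2376 in het2 and 3158, 2580.4, 2822 and 2717 in homo tumours, against 1399, 1377, 1483 and 1353 CPM in WT tumours. No mutant library reached down to WT, and the log2 fold change was 1.14 in het1 (adjusted p = 2.88e-12), 0.73 in het2 (adjusted p = 2.76e-09) and 1.01 in homo tumours (adjusted p = 1.28e-11).

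The disulfide isomerase genes PDIA4 and PDIA6 were raised in the tumours of all 3 lines and stood nearest to WT in het2. PDIA4 was at 989, 1042, 1008 and 1245 CPM in het1, 534, 575, 581 and 578 in het2 and 1028, 996, 1045 and 1054 in homo tumours, against 449, 434, 474 and 435 CPM in WT tumours. All 3 mutant groups lay above WT, with het2 close to it (log2 fold changes 1.26, 0.34 and 1.20). PDIA6 was at 619.8, 646, 585 and 741 CPM in het1, 449.6, 466, 499.5 and 499 in het2 and 915, 874, 878 and 889.7 in homo tumours, against 397, 386, 393 and 383 CPM in WT tumours. The 4 groups did not overlap, and homo was highest (log2 fold change 1.19, SE 0.062, adjusted p = 1.47e-12). 25.2% of PDIA6's annotated exon bases are shared with ATP6V1C2 on the opposite strand; the library kit marks strand, but the strand setting of the counting is not given.

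CRELD2 had the greatest chaperone-list change in homo tumours. It was at 50.7, 52.1, 53.9 and 73.4 CPM in het1, 52.9, 57.7, 55.6 and 57.2 in het2 and 88.1, 90.1, 92.6 and 99.8 in homo tumours, against 35.8, 35.1, 36.1 and 34.2 CPM in WT tumours. Homo libraries were the highest and WT the lowest, without overlap between those 2 groups or with the others, and the homo change was 1.39 (SE 0.087, adjusted p = 4.53e-11). SDF2L1 was at 18.6, 17.3, 17.7 and 27.2 CPM in het1, 21.5, 25.6, 23.2 and 23.8 in het2 and 32.4, 32.3, 36.9 and 38.0 in homo tumours, against 15.3, 16.5, 17.4 and 16.0 CPM in WT tumours. Homo and het2 lay above WT, but het1 overlapped it, and the het1 call (log2 fold change 0.31, adjusted p = 0.0276) was lost without WT replicate 0, 1 or 4 or het1 replicate 4. The library het1 replicate 4 was also the highest of its group for HSPA5, HSP90B1, PDIA4, PDIA6, MANF, DNAJB9, CRELD2, HERPUD1 and XBP1, and the lowest for EDEM1.

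HERPUD1 was the only chaperone-list gene lowered against WT in day 30 tumours, in het1 and homo. It was at 91.3, 87.0, 87.2 and 101 CPM in het1, 168, 181, 178 and 182 in het2 and 85.9, 104, 92.9 and 100.1 in homo tumours, against 152, 182, 199.5 and 175 CPM in WT tumours. All het1 and homo libraries were below all WT libraries, and het2 lay among them. The log2 fold changes were -0.95 in het1 (SE 0.075, adjusted p = 1.14e-09) and -0.89 in homo tumours (SE 0.075, adjusted p = 2.59e-09). EDEM1 was at 156, 146, 141 and 131 CPM in het1, 176, 165, 127 and 149 in het2 and 115, 116, 108 and 120.2 in homo tumours, against 92.3, 93.0, 93.6 and 92.9 CPM in WT tumours. All mutant libraries were above WT, with homo nearest to it; with the marker covariate the homo change of 0.30 became 0.06 and was no longer called. CANX, the membrane lectin chaperone, was not called against WT in any line, with log2 fold changes of -0.10, -0.02 and 0.11. DNAJC3 (P58IPK, an HSPA5 co-chaperone) and HYOU1 (an ER HSP110) were raised in het2 and homo tumours, DNAJC3 by 0.44 and 0.80 and HYOU1 by 0.54 and 0.79, while in het1 tumours their values of 0.04 and 0.08 were not called. CALR, MANF (a secreted ER stress factor) and SEL1L (the adaptor of the ERAD ubiquitin ligase HRD1) were raised in all 3 lines, CALR by 0.60, 0.67 and 0.81, MANF by 0.67, 0.64 and 0.86, and SEL1L by 0.22, 0.37 and 0.46 on the log2 scale. DNAJB9 was raised in het1 and het2 (0.25 and 0.47) and not called in homo tumours (-0.16).

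XBP1, lowered in culture, was raised in the tumours of all 3 lines. It was at 501, 567, 552 and 644 CPM in het1, 636, 579.7, 573 and 707 in het2 and 829, 783, 731 and 761 in homo tumours, against 336, 283, 289 and 316 CPM in WT tumours. Every mutant library lay above every WT library, and homo was the highest group. The log2 fold changes were 0.89 in het1 (SE 0.079, adjusted p = 7.29e-09), 1.03 in het2 (SE 0.079, adjusted p = 1.31e-09) and 1.34 in homo tumours (SE 0.080, adjusted p = 1.24e-11). ATF6 was raised in all 3 lines, by 0.24, 0.29 and 0.42 on the log2 scale. ERN1 was raised in het2 and homo tumours (0.46 and 0.42), the homo call being lost with the marker covariate. EIF2AK3 was lowered in het1 and homo tumours (-0.34 and -0.23) and raised in het2 tumours (0.33), the same directions as in culture. The summed myeloid level, most of it LYZ in WT tumours, and the summed lung epithelial level were lower in all 3 mutant tumour groups than in WT tumours. The part of the lung epithelial shift in the XBP1 and chaperone values of cells and tumours, and that of other cells beyond the covariate fit, was not tested.

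The difference between tumour and culture was tested directly in a joint limma fit of the cell and day 30 libraries, as each line's tumour difference from WT minus its culture difference from WT. In this fit 13 of 15 chaperone genes had a higher difference in het1 tumours than in het1 culture, 12 in het2 and 13 in homo, while 1 in het2 and 1 in homo (EDEM1 in both) had a lower one. Over all genes 25.7%, 28.5% and 29.7% were called higher and 16.4%, 21.6% and 21.7% lower. The chaperone medians were 0.50, 0.36 and 0.89, beside all-gene medians of 0.10, 0.06 and 0.10. XBP1 gave the greatest difference of the 36 genes in het1 and homo, 2.02 in het1 (SE 0.10, adjusted p = 2.54e-15), 1.46 in het2 (SE 0.097, adjusted p = 4.91e-13) and 3.11 in homo (SE 0.10, adjusted p = 1.26e-19). SDF2L1 and PDIA6 were likewise lowered in culture and raised in tumours of all 3 lines, with differences of 0.55, 1.30 and 1.86 for SDF2L1 and 1.01, 0.64 and 1.35 for PDIA6. EDEM1 went the other way in het2 and homo, at -0.57 and -0.53. In the ATF4 arm 10 of 17 were higher and 4 lower in het1, 6 higher and 7 lower in het2, and 7 higher and 6 lower in homo. Its greatest differences were PHGDH in homo (-1.89) and het2 (-1.56), SESN2 in het2 (-1.73) and TRIB3 in het1 (1.41). Cultures and tumours also differ in the marker sums given above, and the part of other cells was not tested in this fit.

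**Figure D3:**
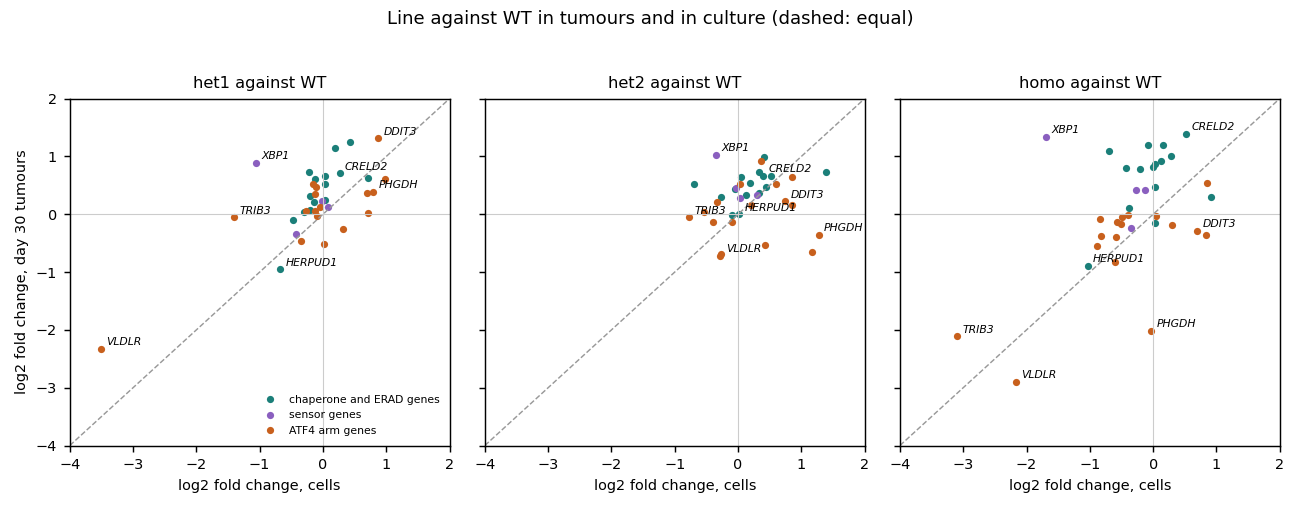
Each point is a gene, placed by its log2 fold change against WT in cells (horizontal) and in day 30 tumours (vertical), for het1, het2 and homo; the dashed line marks equal values. Most chaperone genes (green) lie above the dashed line, XBP1 lies to the upper left, with -1.69 in cells and 1.34 in tumours for homo, and VLDLR and TRIB3 lie at the lower left for homo.

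The treatment set gave a second comparison of het1 with WT tumours, in other libraries. Under DMSO 12 of the 15 chaperone genes were raised and 1 lowered in het1 tumours, where 27.3% of all tested genes were raised and 26.8% lowered. The median was 0.60, beside 0.00 over all genes. PDIA4 was at 1035, 971, 1083 and 1056 CPM in het1 DMSO tumours, against 385, 387, 362 and 365 CPM in WT DMSO tumours (log2 fold change 1.47, SE 0.057, adjusted p = 8.28e-14). HSP90B1 was at 3250.1, 3014, 3376 and 3154 CPM in het1, against 1272, 1249, 1127 and 1149 CPM in WT DMSO tumours (1.42, SE 0.067, adjusted p = 1.26e-12). These ranges were far apart in both genes. CRELD2 was at 59.9, 51.8, 58.1 and 61.9 CPM in het1 and 31.0, 26.3, 26.8 and 24.8 CPM in WT DMSO tumours, again without overlap. CRELD2 and XBP1 had log2 fold changes of 1.09 and 0.96, and HERPUD1, the 1 lowered gene, -0.75. HYOU1, not called in het1 at day 30, was raised by 0.46 here (adjusted p = 1.37e-05). XBP1 itself was at 444, 442, 506 and 463 CPM in het1 and 223, 240.2, 243 and 248 CPM in WT DMSO tumours, and HSPA5 at 1282, 1099, 1251 and 1148 CPM in het1 and 839, 835, 707 and 757 CPM in WT DMSO tumours, with no overlap in either gene. Fibroblast markers summed to 124 to 143 CPM in het1 and 254 to 368 CPM in WT DMSO tumours, with 4 of 10 raised and 4 lowered. Myeloid markers summed to 13.3 to 17.8 CPM in het1 and 41.7 to 74.9 CPM in WT DMSO tumours, with 1 of 6 tested raised and 4 lowered, and all 5 tested lung epithelial markers were lowered. The part of the lung epithelial shift was not tested. With the marker covariate 11 chaperone genes were raised, where 6016 of all 22586 tested genes were.

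Within the ATF4 arm, changes in culture differed in part between the lines. In het1 cells 6 of the 17 were raised and 9 lowered, in het2 cells 9 raised and 7 lowered, and in homo cells 4 raised and 11 lowered, beside the shares of all genes given above. The medians were -0.10, 0.21 and -0.51. DDIT3, ATF5 and SESN2 were raised in all 3 lines, and TRIB3, SHMT2, MTHFD2, VLDLR and SARS were lowered in all 3. Of all tested genes 21.0% were raised and 21.1% lowered in all 3 lines. Against the het1 and het2 lines together (the mean of their log2 levels), 12 of 17 were lowered and 1 raised in homo cells, with 24.9% of all tested genes lowered and 25.0% raised. TRIB3 (-2.003), ASNS (-1.45), PHGDH (-1.07) and CHAC1 (-0.98), whose product degrades glutathione, fell most, and PPP1R15A (GADD34, which reverses the PERK signal) rose by 0.29. In that comparison 11 chaperone genes were lowered, HERPUD1 the most (-0.70), and 2 raised (CRELD2 and PDIA6, 0.19 and 0.16). A lower value than this mean does not place homo below both het lines. For HSPA5, CALR, CANX, EDEM1 and SEL1L the homo libraries lay above het1 and below het2. For HERPUD1 and DNAJC3 they lay below both.

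ATF4 mRNA was lower in homo cells than in any other group in culture. It was at 232, 239 and 231 CPM in het1 cells, 255, 270.5 and 255 in het2 and 140.3, 142 and 141 in homo cells, against 254, 258 and 249.6 CPM in WT cells. Homo libraries lay far below the rest, het1 libraries just below WT, and het2 overlapped WT. The log2 fold changes were -0.85 in homo (SE 0.027, adjusted p = 2.19e-23) and -0.12 in het1 cells (adjusted p = 0.000267), and the het2 value of 0.04 was not called. DDIT3 (CHOP, a transcription factor of ER stress-induced death) was at 8.66, 7.99 and 8.18 CPM in het1 cells, 7.23, 7.85 and 7.54 in het2 and 6.62, 8.15 and 7.21 in homo cells, against 4.24, 4.64 and 4.64 CPM in WT cells. All mutant libraries were above WT, with log2 fold changes of 0.87, 0.74 and 0.70. ATF5, a related factor, also rose in all 3 lines, by 0.97, 0.60 and 0.84 on the log2 scale. DDIT3 shares 31.6% of its exon bases with MARS and MBD6 on the opposite strand and 8.03% with a gene on its own strand, and ATF5 shares 21.2% with IL4I1 and NUP62 on the opposite strand.

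TRIB3, a pseudokinase that feeds back on ATF4, had the greatest fall of the arm in homo cells. It was at 30.6, 30.7 and 30.8 CPM in het1, 47.4, 50.02 and 45.0 in het2 and 9.69, 9.91 and 8.92 in homo cells, against 80.0, 88.8 and 75.7 CPM in WT cells. No groups overlapped, in the order homo, het1, het2 and WT. The log2 fold changes were -1.41 in het1 (SE 0.048, adjusted p = 2.39e-22), -0.78 in het2 (SE 0.047, adjusted p = 5.05e-16) and -3.10 in homo cells (SE 0.056, adjusted p = 1.96e-30). VLDLR, a lipoprotein receptor that ATF4 is known to raise, was at 2.57, 3.07 and 2.34 CPM in het1, 23.9, 25.8 and 25.3 in het2 and 7.06, 6.15 and 6.99 in homo cells, against 29.5, 31.4 and 30.2 CPM in WT cells. Here het1 was the lowest and het2 close to WT (log2 fold changes -3.51, -0.28 and -2.17). SESN2, a stress-induced inhibitor of mTORC1, went the other way, at 13.2, 12.3 and 12.7 CPM in het1, 18.0, 17.2 and 17.1 in het2 and 13.5, 14.4 and 13.7 in homo cells, against 8.31, 7.55 and 7.42 CPM in WT cells. Every mutant library was above WT, with log2 fold changes of 0.72, 1.17 and 0.84.

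Of the serine and folate enzymes, PHGDH and PSAT1 were lower in homo cells than in the het lines together (-1.07 and -0.95 on the log2 scale). PHGDH, which starts serine synthesis, was at 39.4, 40.7 and 39.2 CPM in het1, 55.9, 55.2 and 54.7 in het2 and 24.7, 20.4 and 21.9 in homo cells, against 22.5, 24.2 and 22.0 CPM in WT cells. It rose in het1 and het2 (log2 fold changes 0.80 and 1.27), and homo overlapped WT. PSAT1, the next step, was at 265, 263 and 256 CPM in het1, 355, 376 and 362 in het2 and 159.6, 157 and 163 in homo cells, against 281, 290.1 and 281 CPM in WT cells. Homo was lowest (log2 fold change -0.83, SE 0.027, adjusted p = 2.61e-23) and het2 highest (0.36). PSPH, the last step, was lowered in homo cells (log2 fold change -0.60), and its het2 libraries also lay below WT. The mitochondrial enzymes SHMT2 and MTHFD2 were lowered in all 3 lines, with homo log2 fold changes of -0.58 and -0.48. MTHFD2 stood at 168, 176 and 170 CPM in het2 cells and 178, 173 and 182 in homo cells, against 245, 252 and 249 CPM in WT cells. ASNS (asparagine synthetase) was at 1.35, 1.47 and 1.43 CPM in het1, 1.15, 1.19 and 1.19 in het2 and 0.422, 0.540 and 0.452 in homo cells, against 0.677, 0.937 and 0.975 CPM in WT cells. These levels are near 1 CPM, and 44.6% of its exon bases are shared with a second annotated gene on the same strand (AC079781.5); how reads in shared exons were counted is not given, so ASNS values are uncertain. AARS and SARS, the alanyl- and seryl-tRNA synthetases, were lowered in homo cells (log2 fold changes -0.56 and -0.51). SARS was lowered in all 3 lines. AARS was at 432, 444 and 427 CPM in het2 cells, above the WT values of 361, 390 and 374 CPM. CEBPB, a partner factor of ATF4, was at 56.5, 51.9 and 58.7 CPM in het1, 134, 127 and 123 in het2 and 85.8, 89.9 and 85.6 in homo cells, against 75.7, 73.3 and 65.1 CPM in WT cells. It was lowered in het1 and raised in het2 and homo cells (log2 fold changes -0.36, 0.84 and 0.29).

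**Figure D4:**
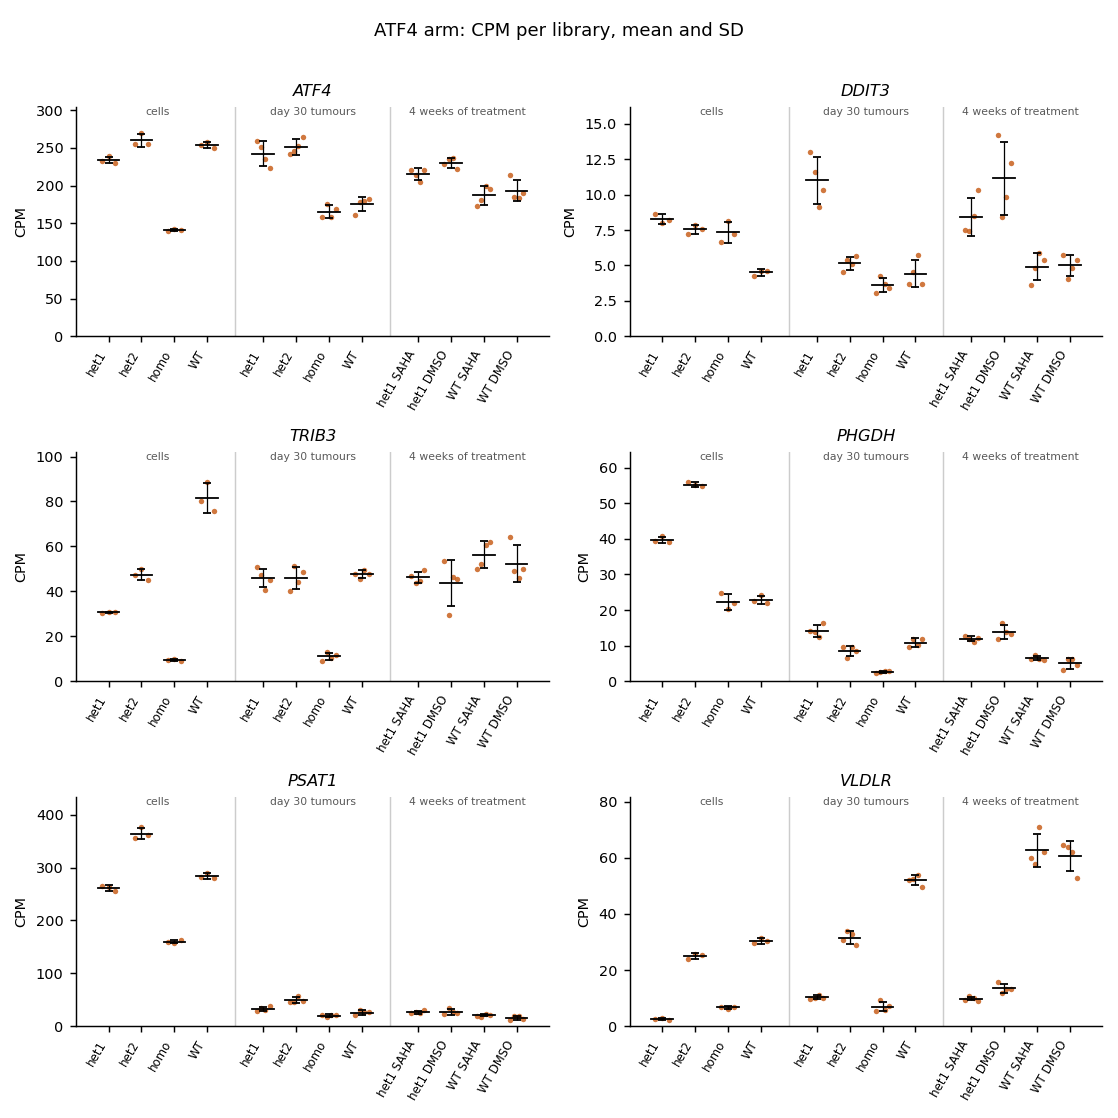
CPM of 6 ATF4 arm genes in each library (points), with the group mean (line) and SD (bar), in cells, day 30 tumours and tumours after 4 weeks of treatment. TRIB3 averages 9.51 CPM in homo cells and 11.1 in homo tumours, against 81.5 CPM in WT cells and 47.8 in WT tumours, and PSAT1 is lower in all tumour groups than in all cell groups.

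In day 30 tumours the ATF4 arm gave calls in both directions. 7 of 17 were raised and 3 lowered in het1, 5 raised and 6 lowered in het2, and 1 raised and 9 lowered in homo tumours, with medians of 0.06, 0.04 and -0.29, beside 0.02, -0.01 and 0.01 over all genes. Of all genes tested, the shares raised and lowered were 26.8% and 24.8% in het1, 24.4% and 24.8% in het2 and 27.1% and 27.7% in homo tumours. ATF5 was the only member raised in all 3 lines, by 0.61, 0.53 and 0.54 on the log2 scale, and PSPH and VLDLR were lowered in all 3, where 11.4% of all tested genes were. With the marker covariate the het2 counts became 3 raised and 2 lowered, and the homo count of lowered genes became 4. Over all 22533 tested genes the covariate fit raised 3865 and lowered 3541 in het2, against 5493 and 5591 without it. In homo it lowered 3243, against 6250. Lost calls of single genes are to be read beside that wider loss. CHAC1 was raised in het2 (0.65), a call lost with the covariate, and PPP1R15A in het1 tumours (0.53). MTHFD2 was not called in any line (0.06, 0.04 and -0.06). Without het2 replicate 1, 3 in place of 6 were lowered in het2, where 5016 of all 23009 tested genes were lowered.

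ATF4 was at 259.6, 252, 235 and 223 CPM in het1, 242, 245, 253 and 265 in het2 and 158, 176, 158 and 169.6 in homo tumours, against 161, 178, 179 and 182 CPM in WT tumours. The het1 and het2 libraries were above WT, and homo overlapped it (log2 fold changes 0.47, 0.52 and -0.08, adjusted p = 7.04e-07, 2.11e-07 and 0.241). DDIT3 was at 13.0, 11.6, 9.09 and 10.3 CPM in het1, 4.56, 5.36, 5.08 and 5.64 in het2 and 3.09, 4.25, 3.69 and 3.44 in homo tumours, against 3.70, 4.53, 5.73 and 3.72 CPM in WT tumours. Het1 stood clear of the rest (log2 fold change 1.31, SE 0.14, adjusted p = 9.99e-08), and the het2 and homo values of 0.22 and -0.29 were not called.

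TRIB3 was at 50.6, 47.5, 40.8 and 45.0 CPM in het1, 40.2, 51.3, 44.2 and 48.5 in het2 and 9.16, 13.0, 10.4 and 11.6 in homo tumours, against 47.8, 45.7, 49.7 and 48.0 CPM in WT tumours. Homo lay far below WT, with a log2 fold change of -2.11 (SE 0.096, adjusted p = 3.03e-13), and het1 and het2 at -0.06 and -0.05 were not called. PHGDH was at 14.0, 13.9, 12.4 and 16.5 CPM in het1, 9.53, 6.53, 9.72 and 8.38 in het2 and 2.31, 2.63, 2.99 and 2.82 in homo tumours, against 9.52, 11.9, 10.1 and 12.0 CPM in WT tumours. Homo was far below the rest (log2 fold change -2.01, SE 0.13, adjusted p = 4.31e-11), het1 above WT (0.38) and het2 overlapped WT; its call (-0.35, adjusted p = 0.0198) was lost without WT replicate 1 or 4 or het2 replicate 1. VLDLR was at 9.68, 10.3, 11.2 and 10.2 CPM in het1, 30.8, 33.8, 32.8 and 28.8 in het2 and 5.56, 9.24, 5.93 and 7.26 in homo tumours, against 52.1, 52.5, 53.8 and 49.8 CPM in WT tumours. The groups stood in the order homo, het1, het2 and WT without overlap, and the log2 fold changes against WT were -2.33 in het1, -0.72 in het2 and -2.89 in homo.

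PSAT1 was at 29.6, 34.6, 31.1 and 37.7 CPM in het1, 45.4, 46.1, 58.0 and 47.4 in het2 and 21.0, 16.8, 21.9 and 21.1 in homo tumours, against 20.6, 30.2, 27.2 and 26.2 CPM in WT tumours. Het2 was clearly highest (log2 fold change 0.92, adjusted p = 2.4e-06), while het1 and homo overlapped WT; the het1 call was lost without WT replicate 0 or het1 replicate 4, and the homo call with the marker covariate. ASNS was at 0.452, 0.500, 0.374 and 0.534 CPM in het1, 0.331, 0.160, 0.191 and 0.318 in het2 and 0.285, 0.335, 0.210 and 0.166 in homo tumours, against 0.289, 0.360, 0.499 and 0.299 CPM in WT tumours, with no call and the same uncertainty as in cells. CEBPB was at 48.8, 50.4, 42.8 and 53.0 CPM in het1, 68.7, 68.4, 95.1 and 68.1 in het2 and 40.0, 63.8, 65.6 and 67.2 in homo tumours, against 76.9, 63.3, 60.5 and 68.9 CPM in WT tumours. Only het1 passed the test (-0.47, adjusted p = 0.0184), and not without WT replicate 0 or het1 replicate 3. SESN2 was at 9.12, 7.67, 9.56 and 10.4 CPM in het1, 5.94, 5.52, 5.55 and 5.97 in het2 and 6.91, 7.98, 6.13 and 7.20 in homo tumours, against 11.7, 8.21, 8.48 and 7.92 CPM in WT tumours. Het2 lay below all other groups (-0.66, adjusted p = 0.000106), the homo call of -0.36 was lost without WT replicate 0 or homo replicate 4, and both calls were lost with the marker covariate.

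Set against het1 and het2 tumours together, most called chaperone genes were higher and all called ATF4 arm genes lower in homo tumours. 11 of 15 chaperone genes were raised and 3 lowered, while 10 of 17 ATF4 arm genes were lowered and the other 7 not called, where 22.1% of all tested genes were raised and 22.7% lowered. The medians were 0.18 for the chaperone genes and -0.36 for the ATF4 arm, beside 0.00 over all genes. The greatest chaperone differences were CRELD2 (0.71, SE 0.072, adjusted p = 1.6e-07), SDF2L1 (0.68), PDIA6 (0.68) and DNAJC3 (0.56), in all of which every homo library was above every het library. The lowered chaperone genes were DNAJB9 (-0.52), HERPUD1 (-0.41) and EDEM1 (-0.38). In the ATF4 arm TRIB3 (-2.06, SE 0.088, adjusted p = 9.12e-13), PHGDH (-2.03), VLDLR (-1.37) and DDIT3 (-1.06) differed most. For HSPA5 and HSP90B1 the homo libraries overlapped those of the het lines, and the HSPA5 call (0.17, adjusted p = 0.0241) was lost without het1 replicate 1 or 2 or homo replicate 0 or 4.

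In het1 tumours under DMSO, 8 of 17 ATF4 arm genes were raised and 2 lowered against WT, where 27.3% of all tested genes were raised and 26.8% lowered. DDIT3 was at 14.2, 8.41, 9.80 and 12.2 CPM in het1 and 5.74, 4.07, 4.79 and 5.40 CPM in WT DMSO tumours (log2 fold change 1.16, SE 0.17, adjusted p = 1.91e-05). PHGDH was at 11.8, 16.5, 13.8 and 13.2 CPM in het1 and 3.07, 6.37, 6.15 and 4.65 CPM in WT DMSO tumours (1.45, SE 0.17, adjusted p = 9.48e-07). In both genes het1 lay above WT in every library. CEBPB was at 43.1, 28.3, 37.0 and 46.7 CPM in het1 and 85.8, 84.3, 99.998 and 106 CPM in WT DMSO tumours, and VLDLR at 15.6, 12.0, 13.2 and 13.3 CPM in het1 and 64.4, 63.8, 61.9 and 52.7 CPM in WT. Both were lower in every het1 library (-1.28 and -2.16, adjusted p = 1.89e-06 and 1.17e-13). ATF4 was at 229, 235, 237 and 222 CPM in het1 and 214, 186, 183 and 190.3 CPM in WT DMSO tumours, a rise of 0.25 on the log2 scale without overlap. ASNS was at 0.488, 0.630, 0.410 and 0.466 CPM in het1 and 0.627, 0.398, 0.390 and 0.374 CPM in WT DMSO tumours, overlapping and not called.

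Among the 36 genes, edgeR called differences between SAHA and DMSO in het1 tumours but not in WT tumours. In WT tumours edgeR called none of the 36 genes, and 0.00% of all 22586 genes tested; at an unadjusted p under 0.05 there were 1911 genes, 4 of them among the 36, and DESeq2 called 155 genes and none of the 36. The 15 chaperone genes had log2 fold changes between -0.17 and 0.09 in WT tumours, and the 17 ATF4 arm genes between -0.19 and 0.36. In het1 tumours 2 chaperone genes were lowered, 4 ATF4 arm genes lowered and 1 raised, and 1 sensor gene lowered, where 9.15% of all tested genes were lowered and 7.68% raised. DNAJB9, an HSPA5 co-chaperone that restrains IRE1, was at 68.2, 69.3, 65.0 and 73.6 CPM in het1 SAHA tumours and 109.6, 80.1, 96.4 and 108 CPM in het1 DMSO tumours. The groups did not overlap, and DNAJB9 fell by 0.51 on the log2 scale (SE 0.096, adjusted p = 0.00159). VLDLR was at 9.51, 10.6, 10.3 and 9.16 CPM in het1 SAHA and 15.6, 12.0, 13.2 and 13.3 CPM in het1 DMSO tumours, a log2 fold change of -0.45 (SE 0.086, adjusted p = 0.0015) without overlap. CEBPB was at 55.3, 47.7, 60.4 and 53.5 CPM in het1 SAHA and 43.1, 28.3, 37.0 and 46.7 CPM in het1 DMSO tumours, a rise of 0.48 (adjusted p = 0.0277) that was not called without het1 DMSO replicate 3 or 4 or het1 SAHA replicate 1, 3 or 6. The other called falls were ATF5 (-0.27), SESN2 (-0.30), EIF2AK3 (-0.28), AARS (-0.18) and DNAJC3 (-0.15), each of which lost its call in at least 1 fit that left out a library.

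The levels of HSPA5, XBP1, ATF4, DDIT3 and ASNS under SAHA overlapped those under DMSO in WT tumours. HSPA5 was at 1167, 1107, 1115 and 1279 CPM in het1 SAHA and 1282, 1099, 1251 and 1148 CPM in het1 DMSO tumours, and at 748, 867, 778 and 768 CPM in WT SAHA and 839, 835, 707 and 757 CPM in WT DMSO tumours. XBP1 was at 492, 475, 391 and 523 CPM in het1 SAHA tumours and 236, 245, 201 and 208 CPM in WT SAHA tumours. Both genes overlapped their DMSO groups in both lines (log2 fold changes in het1 -0.03 and 0.02, in WT 0.01 and -0.10). ATF4 was at 221, 214, 205 and 221 CPM in het1 SAHA tumours and 173, 181, 199 and 195 CPM in WT SAHA tumours. DDIT3 was at 7.49, 7.44, 8.50 and 10.3 CPM in het1 SAHA tumours and 3.60, 4.83, 5.90 and 5.37 CPM in WT SAHA tumours. ASNS was at 0.433, 0.491, 0.630 and 0.380 CPM in het1 SAHA tumours and 0.395, 0.473, 0.554 and 0.570 CPM in WT SAHA tumours. None of the 3 was called; for ATF4 the het1 SAHA libraries lay just below the het1 DMSO libraries, with a log2 fold change of -0.10 (adjusted p = 0.256).

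Whether the SAHA effect differed between het1 and WT tumours was tested as an interaction, which called 1 of the 36 genes (VLDLR), where 2.71% of all tested genes were called lower and 2.01% higher. VLDLR was at 59.8, 57.8, 70.8 and 61.9 CPM in WT SAHA and 64.4, 63.8, 61.9 and 52.7 CPM in WT DMSO tumours, a log2 fold change of 0.04, and the difference between the het1 and WT effects was -0.50 (SE 0.12, adjusted p = 0.0227). It was not called without het1 SAHA replicate 1 or with the replicate block. The block left 13 higher and 6 lower calls among all 22586 tested genes, against 455 and 611 without it. CEBPB (0.67, adjusted p = 0.0667) and AARS (-0.24, adjusted p = 0.0549) did not pass the test. An unadjusted p under 0.05 was found for 8 of the 36, a share similar to the 4473 of all 22586 tested genes. Fibroblast markers summed to 173 to 252 CPM in het1 SAHA and 124 to 143 CPM in het1 DMSO tumours. With the marker covariate 1 chaperone and 2 ATF4 arm genes were lowered by SAHA in het1 tumours. Of all 22586 tested genes 1719 were lowered in that fit, against 2067 without the covariate. The part of other cells in the rest was not tested.

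**Figure D5:**
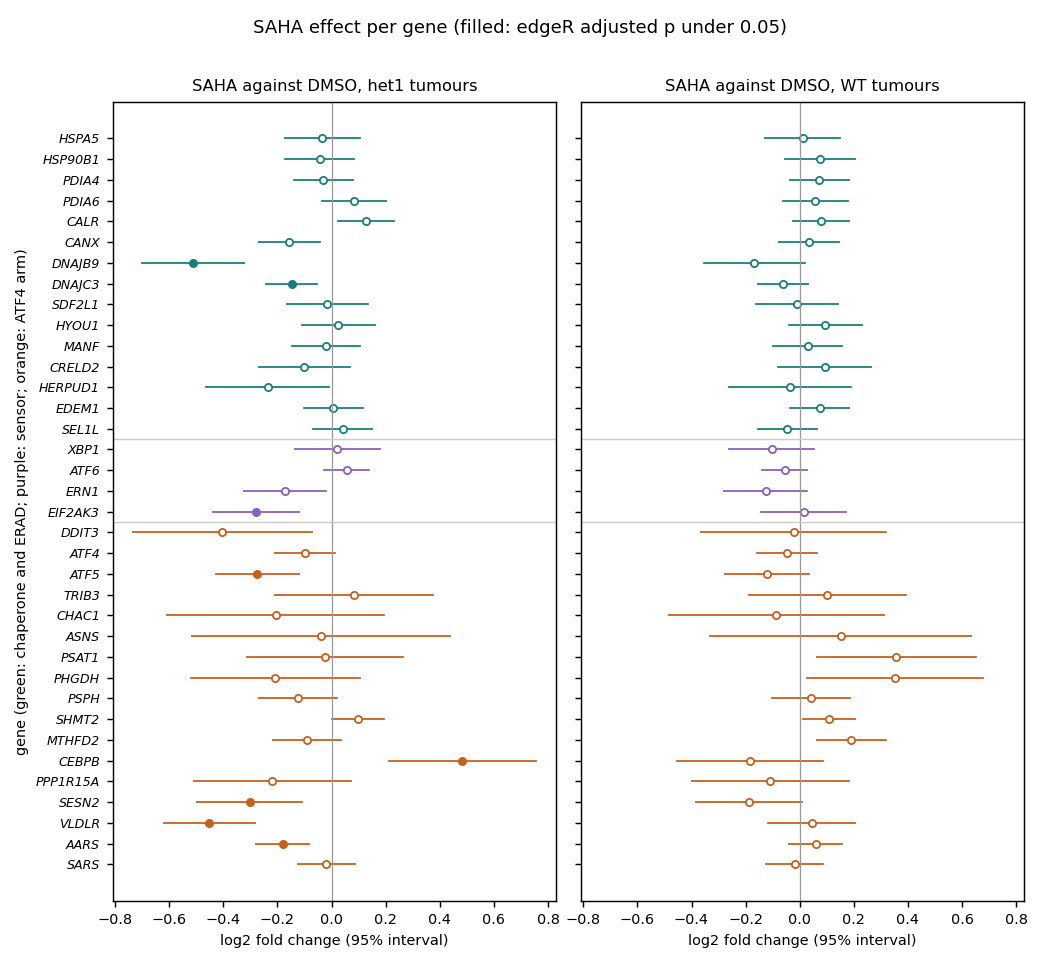
Log2 fold change of SAHA over DMSO for each of the 36 genes (points), with an approximate 95% interval of 1.96 SE on either side (line), in het1 tumours (left) and WT tumours (right); filled points have an edgeR adjusted p under 0.05. DNAJB9 and VLDLR in het1 lie farthest below 0 among the filled points, at -0.51 and -0.45, and CEBPB lies above 0 at 0.48.

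Longer lists of related genes gave the following counts in the same fits. They are to be read against the shares of all tested genes raised and lowered, which were 26.8% and 24.8% in het1, 24.4% and 24.8% in het2 and 27.1% and 27.7% in homo tumours, and 32.0% and 30.8% in het1, 35.1% and 33.3% in het2 and 35.4% and 35.1% in homo cells. Of 24 further genes of ER folding, translocation and degradation (23 of them tested in cells), 14 were raised and 4 lowered in het1 tumours, 21 raised and 1 lowered in het2 tumours, and 14 raised and 4 lowered in homo tumours, with medians of 0.23, 0.57 and 0.53, beside 0.02, -0.01 and 0.01 over all genes. The counts in cells were 8 raised and 11 lowered in het1, 16 and 3 in het2, and 7 and 9 in homo. ERO1B, a disulfide-forming oxidase, was raised in all 3 lines in cells (1.33, 2.81 and 0.92) and in tumours (1.12, 1.24 and 0.90). EDEM2, an ERAD mannosidase, was raised in tumours by 1.08, 1.09 and 1.83, while DERL3, an ERAD channel component, was lowered in homo tumours (-1.53). SERP1, which protects nascent ER proteins, was lowered in het1 (-0.65) and homo tumours (-0.45) and raised in het2 tumours (0.58).

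Of 26 further ATF4 targets (25 tested in each table), most called genes were lowered in culture: 5 raised and 18 lowered in het1, 8 and 16 in het2, and 3 and 19 in homo cells, where 30.8%, 33.3% and 35.1% of all tested genes were lowered. STC2, a secreted stress glycoprotein, was lowered in het1 (-4.02) and homo cells (-5.51). In tumours it was raised in het1 (1.22) and het2 (1.81) and lowered in homo (-2.54). NUPR1, a stress-induced chromatin protein, was lowered in het1 (-2.34) and homo cells (-4.26) and raised in het2 tumours (2.77). CTH, which makes cysteine, rose in all 3 lines in cells, by 2.11, 2.43 and 5.00. In tumours 7 of the 25 were raised and 11 lowered in het1, 9 and 10 in het2, and 7 and 12 in homo, beside the shares of all genes given with the first list. Under SAHA 6 of the 25 fell in het1 tumours, where 9.15% of all tested genes did. The test of the difference between the het1 and WT effects called 5 lower, where it called 2.71% of all tested genes lower, and these code for 4 amino acid transporter subunits and for CEBPG, a partner factor of ATF4: SLC6A9 (-0.98), SLC7A11 (-0.72), SLC7A5 (-0.46), SLC3A2 (-0.38) and CEBPG (-0.28). The replicate block left 6 lower calls among all 22586 tested genes, and whether these 5 were among them is not given.

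A list of 18 further cytosolic tRNA synthetase genes, which charge tRNAs for translation, had 14 members lowered and 3 raised in het1 cells, 15 lowered and 1 raised in het2 cells and all 18 lowered in homo cells, with YARS (-1.11), CARS (-0.93) and GARS (-0.87) lowered most in homo. In tumours 5 were raised and 5 lowered in het1, 5 and 3 in het2, and 4 and 4 in homo, all near or below the share of all genes. In the joint fit 15 of 18 had a higher difference in tumours than in culture, and 1 a lower one, in each line, where 25.7%, 28.5% and 29.7% of all tested genes had a higher one. Of 12 further stress sensors and their partners, 7 were raised and 3 lowered in het1, 6 and 4 in het2, and 5 and 5 in homo cells, and 4 and 5, 3 and 5, and 3 and 5 in the tumours of the same lines.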

How the data were processed

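Gene counts of 44 libraries were used in 3 tables: cells, day 30 tumours and the treatment set. Per the labels' protocols, polyadenylated RNA was made into libraries with a stranded mRNA kit, and per the submitters' processing notes HISAT2, HTSeq, bcl2fastq and hg38 were used, without versions. The deposited values are raw HTSeq counts per Ensembl gene. Neither the annotation release that was counted nor the strand setting is stated in the labels or headers. All 58721 IDs matched GENCODE 29, which gave symbols and, from its basic annotation, exon lengths for CPM per kb.

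Each table was filtered with filterByExpr and scaled by TMM, and all its groups were fitted together with edgeR 4.0.16 (R 4.3.3), quasi-likelihood test, contrasts between groups, Benjamini-Hochberg adjustment over all genes of the table and a threshold of 0.05. The covariate fit adds the mean log2 level of the fibroblast, endothelial and myeloid markers. The fit of tumour minus culture differences used limma 3.58.1 (voom) on both tables and was chosen after seeing the data. The script was tested on simulated counts with known changes. The members and lists were chosen with earlier results of these data known. Genes named are called members, with up to 4 rises and 4 falls per list and comparison first, values per library where a called change was at least 1 on the log2 scale, HSPA5, XBP1, ATF4, DDIT3 and ASNS everywhere, and up to 3 called related genes each way; other members were added to account for the lists. Alternatives were DESeq2 1.42.0, RLE size factors, no filter, a mean of at least 1 CPM, a called change of at least 1 on the log2 scale, only the groups compared, a replicate block, the covariate, and leaving out each library. Of 60 pairs of libraries within groups none were identical. Of the 36 genes, ASNS, CHAC1 and others near 1 CPM carry the greatest counting error.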

Additional observations from a re-analysis of the deposited data

Results flagged for a closer look

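In 24 of 288 groups of 4 tumour libraries, each tested for 1 gene, a single library stood apart from the other 3 by more than Dixon's test at the 95% level allows; chance gives about 5% of groups. Het1 day 30 replicate 4 held the highest value of its group for CRELD2 (73.4 CPM), DNAJB9 (98.3 CPM), HSPA5 (1286 CPM), MANF (109 CPM) and SDF2L1 (27.2 CPM). WT day 30 replicate 0 held the highest value of its group for SESN2 (11.7 CPM) and the lowest value of its group for CHAC1 (0.758 CPM) and EIF2AK3 (50.6 CPM). WT DMSO replicate 2 held the highest value of its group for ASNS (0.627 CPM), MANF (61.5 CPM) and PPP1R15A (55.1 CPM). Het2 day 30 replicate 3 held the highest value of its group for CEBPB (95.1 CPM) and PSAT1 (58.0 CPM) and the lowest value of its group for PPP1R15A (37.9 CPM). WT day 30 replicate 2 held the highest value of its group for ATF6 (91.2 CPM) and DNAJB9 (80.1 CPM). WT DMSO replicate 7 held the lowest value of its group for DNAJC3 (128 CPM). WT SAHA replicate 4 held the highest value of its group for PDIA4 (427 CPM). WT SAHA replicate 6 held the lowest value of its group for ATF6 (84.8 CPM). Het1 day 30 replicate 2 held the highest value of its group for ERN1 (45.0 CPM). Het1 DMSO replicate 3 held the lowest value of its group for SHMT2 (85.9 CPM). Het2 day 30 replicate 0 held the lowest value of its group for PDIA4 (534 CPM). Het2 day 30 replicate 4 held the highest value of its group for SHMT2 (87.6 CPM). Homo day 30 replicate 0 held the lowest value of its group for CEBPB (40.0 CPM).

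Some genes moved in opposite called directions in culture and in tumours of the same line, and the difference was itself called by limma (adjusted p under 0.05). In het1 the tumour minus culture difference (log2) was 2.02 for XBP1, 1.01 for PDIA6, 0.80 for CALR, 0.73 for PPP1R15A, 0.65 for ATF4, 0.55 for PSAT1, 0.55 for SDF2L1 and 0.43 for SEL1L. In het2 it was 1.46 for XBP1, 1.30 for SDF2L1, 0.64 for PDIA6, -1.56 for PHGDH and -1.73 for SESN2. In homo it was 3.11 for XBP1, 1.86 for SDF2L1, 1.35 for PDIA6, 1.31 for DNAJC3, 1.07 for HYOU1, 0.77 for ERN1, 0.63 for ATF6 and -1.12 for SESN2. VLDLR differed between het1 and WT tumours in its SAHA effect, by -0.50 on the log2 scale (edgeR interaction, adjusted p = 0.0227). The cell and tumour libraries also differ in the marker sums given above, whose part in these differences was not tested.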

How the results depend on the processing

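Requiring a log2 change of at least 1 beside the adjusted p moved most counts, since most changes were smaller. In het1 cells 0 chaperone genes were then raised and 0 lowered, and 0 ATF4 arm genes raised and 2 lowered; in het2 cells 1 and 0 chaperone and 2 and 0 ATF4 arm genes; in homo cells 0 and 1 chaperone and 0 and 2 ATF4 arm genes; in homo against het cells 0 and 0 chaperone and 0 and 3 ATF4 arm genes. In het1 tumours 2 and 0 chaperone and 1 and 1 ATF4 arm genes passed, in het2 tumours 0 raised chaperone and 0 and 0 ATF4 arm genes, in homo tumours 5 and 0 chaperone and 0 and 3 ATF4 arm genes, in homo against het tumours 0 and 0 chaperone and 5 lowered ATF4 arm genes, and under DMSO 3 and 0 chaperone and 2 raised ATF4 arm genes. For SAHA in het1 tumours and for its difference from WT these counts were 0. No share of all tested genes is given at this cutoff, so whether the list counts are few or many cannot be told from them.

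The marker covariate gave 3 raised and 2 lowered ATF4 arm genes in het2 tumours, 4 lowered in homo tumours, and 1 chaperone and 2 ATF4 arm genes lowered by SAHA in het1 tumours. Calls also fell over all 22533 tested genes: in het2 tumours from 5493 to 3865 raised and from 5591 to 3541 lowered. In homo tumours lowered genes fell from 6250 to 3243, and under SAHA in het1 tumours from 2067 to 1719 of 22586. With the covariate SHMT2 in het2 tumours changed sign to 0.00625 (adjusted p = 0.967), from a called -0.14. The cause was not tested. DESeq2 called 2 lowered chaperone genes in het1 tumours, where it lowered 5820 of 22533 tested genes. For the difference in SAHA effects it called 1 higher and 2 lower ATF4 arm genes. Of 19080 genes tested there, 789 were higher and 1003 lower. With only the groups compared, 2 chaperone genes were lowered in homo tumours, where 6293 of 21211 tested genes were. In that setting SAHA lowered 4 chaperone genes in het1 tumours, and 2523 of 21277 tested genes. With a mean of at least 1 CPM, SAHA in het1 tumours raised 1 and lowered 1 chaperone gene. Of all 15280 genes tested there, it raised 1702 and lowered 1774. The difference in SAHA effects then called 1 higher ATF4 arm gene, and 533 higher genes in all. With no filter SAHA in het1 tumours lowered 1 chaperone gene and raised 0 ATF4 arm genes. Of all 42760 genes in that fit, it lowered 1567 and raised 1494. RLE size factors moved none of 48 counts.

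Replicate numbers did not pair the samples: the median correlation of deviations of libraries with the same number was -0.01 in cells, -0.01 in day 30 tumours and -0.02 in the treatment set. With the replicate block, SAHA in het1 tumours lowered 1 chaperone and 2 ATF4 arm genes and raised 0, the difference in SAHA effects called 0 lower ATF4 arm genes, and the other 44 counts stayed within 1.5 times. Over all 22586 tested genes the block cut the het1 SAHA calls from 1734 raised and 2067 lowered to 370 and 442. It cut the calls for the difference in SAHA effects from 455 higher and 611 lower to 13 and 6.

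Leaving out 1 library at a time, the counts that moved by over 1.5 times were ATF4 arm genes lowered (2 to 3) and raised (0 to 1) and chaperone genes lowered (1 to 3) by SAHA in het1 tumours, ATF4 arm genes called lower (0 to 3) and higher (0 to 1) for the difference in SAHA effects, ATF4 arm genes lowered in het2 tumours (3 to 6), chaperone genes lowered in homo tumours (1 to 2) and chaperone genes with a lower tumour minus culture difference in het1 (0 to 1). Over all such refits of called members, 144 lost the call and 3158 kept it. Each edgeR refit named here tested 22932 to 23103 genes. SAHA in het1 tumours lowered 1467 to 1934 of them and raised 1168 to 1421. The difference in SAHA effects called 313 to 959 lower and 229 to 718 higher. In het2 tumours 5016 to 5478 were lowered, and in homo tumours 5802 to 6060. All-gene counts for the refits of the tumour minus culture fit are not given.

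Limits: each genotype is a single line, tumours hold host cells whose reads were not separated here, and mRNA counts show neither XBP1 splicing nor ATF4 protein. ASNS rests on fewer than 1.5 CPM and shares exons with a second gene.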

Other observations

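Under DMSO, 17 of the 24 further genes of ER folding, translocation and degradation were raised and 2 lowered in het1 tumours against WT tumours, with a median log2 fold change of 0.46, where 27.3% of all tested genes were raised and 26.8% lowered. CREB3L1, an ER membrane transcription factor related to ATF6, was raised by 1.55 there (adjusted p = 0.000172, edgeR), and GDF15, a secreted stress cytokine among the further ATF4 targets, by 2.34 (adjusted p = 2.42e-05, edgeR). MBTPS1, the protease that makes the first cut in ATF6, was raised in day 30 tumours of all 3 lines, by 0.62 in het1, 0.79 in het2 and 0.90 in homo on the log2 scale. Under SAHA 4 of the 12 further stress sensors and their partners were lowered in het1 tumours against DMSO, where 9.15% of all tested genes were, among them EIF2AK2, the kinase PKR, at -0.42 (adjusted p = 0.000545, edgeR).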
